A study of Mus musculus with 6 samples.

Results

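Lung fibroblasts on 32 kPa silicone had 2121 regions of chromatin that were more accessible than on 0.2 kPa silicone, and these regions are described here. Every region of the authors' deposited table of that comparison was taken, with no further selection. They were 2121 of the 68452 rows in the 3 deposited tables. The authors' deposited table held an FDR of at most 0.05 and a fold of at least 1 on the log2 scale in each row. The number of regions tested is not stated. The table's FDR column implies about 20700, of which the listed regions were 10.2%, while the last row alone would give 22097. The region identifiers, read as ranks, ran to 5480, and the last row's p-value and FDR imply rank 5134. Read so, more regions passed the FDR than were listed, and those left out could not be seen. All listed regions were higher on 32 kPa, and whether any region was higher on 0.2 kPa was not analysed here.

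The fibroblasts were sorted by their GFP from lungs of Col1a1-GFP transgenic mice, in which GFP marks cells that use the collagen I promoter. They were seeded at 5000 cells per cm2 on collagen I (0.1 mg/mL) and kept for 8 days with 10% serum on 0.2 kPa PDMS, 32 kPa PDMS or tissue-culture plastic. PDMS is a silicone rubber whose stiffness is set by its mix, and the softer and stiffer grades were made to resemble healthy and scarred tissue. Open chromatin was measured with Omni-ATAC-seq, where a transposase tags the DNA it can reach, on 50000 cells per library with 51-base reads from both ends. Each culture had 2 libraries, 6 in all. The labels do not say whether these came from separate animals, so the authors' p-values measure only the spread between libraries, which may be technical. For each region the tables hold the mean of a culture, as log2 normalised reads, with no value per library, and the depth is unknown. Levels and differences below are therefore given without a spread, and a difference is the level on 32 kPa minus that on 0.2 kPa. In such bulk samples, fewer cells of a type and less open chromatin per cell cannot be told apart.

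A fibroblast senses stiffness by pulling on its matrix through integrins and actin-myosin fibres. On stiff surfaces it can turn into a myofibroblast, which carries smooth muscle actin and lays down collagen. The textbook routes from tension to genes run through SRF with its actin-sensing cofactors, which bind the CArG box, and through YAP and TAZ, which bind DNA with TEAD factors and are held back by the Hippo kinases. TGF-beta, stored in the matrix and released by tension, acts on the same genes through SMAD proteins.

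The promoters of contractile genes, of a YAP target and of a microRNA host were among the listed regions. Printed here are 5 whose sequences hold the TEAD or CArG letters. Each line below gives the 250 bases before the start site from RefSeq (GRCm38.p6, the build mm10), written 5′ to 3′ on the strand of the gene. Capitals mark the TEAD letters GGAATG on either strand in Acta2, Smtn and Crim1, and the CArG box in Myl9 and Dnm3os. Only the exact box CCWWWWWWGG, with W for A or T, was searched. Near matches to it, such as ccctatatgg and ccttgtttgg in Acta2, are therefore left unmarked. The 5 promoters were chosen after their values and sequences were seen, and a match is a description, not a binding site. Such letters were no more frequent in listed promoters than in other open promoters of like level. TEAD letters were in 11.1% against 11.2% of windows, and the exact box in 0.947% against 1.45%. Their positions are chr19:34255374-34255623 (minus strand) for Acta2, chr2:156775214-156775463 (plus) for Myl9, chr11:3539293-3539542 (minus) for Smtn, chr17:78199998-78200247 (plus) for Crim1 and chr1:162217373-162217622 (plus) for Dnm3os.
Acta2: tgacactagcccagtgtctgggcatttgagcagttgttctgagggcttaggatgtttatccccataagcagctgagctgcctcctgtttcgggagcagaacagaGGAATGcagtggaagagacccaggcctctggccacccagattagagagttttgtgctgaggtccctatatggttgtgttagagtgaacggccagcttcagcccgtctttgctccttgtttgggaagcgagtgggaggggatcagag
Myl9: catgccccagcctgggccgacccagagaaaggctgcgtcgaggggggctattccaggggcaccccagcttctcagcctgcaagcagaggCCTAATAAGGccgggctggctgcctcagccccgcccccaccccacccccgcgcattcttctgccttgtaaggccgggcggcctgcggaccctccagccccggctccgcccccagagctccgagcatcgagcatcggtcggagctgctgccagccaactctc
Smtn: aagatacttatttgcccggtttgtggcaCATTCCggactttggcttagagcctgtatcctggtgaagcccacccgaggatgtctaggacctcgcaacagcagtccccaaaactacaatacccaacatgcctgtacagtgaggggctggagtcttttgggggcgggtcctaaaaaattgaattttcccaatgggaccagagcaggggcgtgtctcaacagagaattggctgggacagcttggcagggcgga
Crim1: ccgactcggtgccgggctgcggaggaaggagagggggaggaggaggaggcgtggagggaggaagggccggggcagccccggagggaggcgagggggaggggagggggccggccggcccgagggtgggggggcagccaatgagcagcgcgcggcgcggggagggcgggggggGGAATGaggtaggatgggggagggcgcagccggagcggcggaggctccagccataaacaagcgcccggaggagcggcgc
Dnm3os: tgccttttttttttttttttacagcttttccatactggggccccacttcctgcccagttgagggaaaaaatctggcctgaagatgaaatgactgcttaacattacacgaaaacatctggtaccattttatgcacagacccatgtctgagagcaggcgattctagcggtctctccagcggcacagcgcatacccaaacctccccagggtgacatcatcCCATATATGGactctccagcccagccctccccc

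The TEAD letters began 146 bases before the start site in Acta2, 222 in Smtn and 79 in Crim1, and the CArG box 161 bases before it in Myl9 and 33 in Dnm3os. The region over the Acta2 promoter, the smooth muscle actin gene, had a level of 5.37 on 0.2 kPa, 6.49 on 32 kPa and 6.59 on plastic. That over the Myl9 promoter, a regulatory light chain of myosin, had 4.83, 5.93 and 6.19 in the same order. Smtn, which encodes the actin-binding smoothelin, had 4.88, 6.01 and 5.77. Both stiffer cultures stood above the soft culture at each of these 3 promoters. Plastic stood above 32 kPa at Acta2 and Myl9 but not at Smtn. Plastic levels throughout came from a matched interval of another comparison, identical at 643 regions. Small gaps between plastic and 32 kPa therefore cannot be told from a change of interval. Crim1, a transmembrane regulator of growth factors, had 5.12, 6.22 and 6.05. Dnm3os, the transcript that carries miR-199a and miR-214, had 5.14, 6.27 and 6.24. Both were again lowest on 0.2 kPa. The listing itself fixed 32 kPa above 0.2 kPa, and plastic stood above 0.2 kPa at 2115 of the 2117 listed regions with a plastic level.

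MicroRNA genes were the nearest gene at 36 listed regions. These belonged to 32 of 257 measured microRNA genes (12.5%), where 17.9% of all measured genes had a listed region, and RefSeq gave a mature sequence for 27 of them. MicroRNAs silence messages that match their seed, bases 2 to 8, shown here in capitals for 5 whose families are known in fibroblasts or that share a seed.
miR-21a-5p: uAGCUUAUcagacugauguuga
miR-99b-5p: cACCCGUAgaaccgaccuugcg
miR-125b-5p: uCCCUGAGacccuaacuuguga
let-7i-5p: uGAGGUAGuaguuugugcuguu
miR-1961: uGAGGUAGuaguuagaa

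Among the 39 mature sequences the seed GAGGUAG of let-7i-5p and miR-1961 was the only shared one. A region 13.7 kb downstream of Mir21a, a microRNA raised in scarring tissue, went from 4.45 to 5.54 and had 5.51 on plastic. A region 3.10 kb upstream of Mir99b went from 6.32 to 7.38 and had 7.08 on plastic. The region 1.75 kb upstream of Mir125b-2 had 4.18, 5.29 and 5.0. The soft culture was lowest at all 3, as at nearly all listed regions, and plastic lay between the silicones. Those assigned to Mirlet7i and Mir1961 lay 94.9 and 24.8 kb away, in introns of Ppm1h and Shroom3. In all, 14 of the 36 regions lay within 10 kb of the microRNA and 2 were promoters, so most of these assignments rest on the nearest start site alone.

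The 2121 regions were of middling strength and narrow, and most of them differed by little more than the authors' threshold. Their levels on 0.2 kPa ran from 3.24 to 7.88 (median 4.83) and on 32 kPa from 4.97 to 8.91 (median 5.97). The difference ran from 0.99 to 2.11 with a median of 1.12, which is 2.17-fold, and the middle 50% of regions lay between 1.05 and 1.22. A difference of at least 1.5 was reached by 61 regions (2.88%) and of at least 2 by 2 regions. The regions were 134 to 983 bases wide (median 321). Just inside the fold threshold lay regions of Dnah5, Dnmt1, Insig1, Atp10d and Topors, each with a difference of 0.99 from rounding. Just inside the FDR threshold lay regions that included those of B230311B06Rik, Ilvbl, Dnah5 and Lrrc57, at 0.0499 to 0.05 in the authors' deposited table. Regions just outside either threshold were not analysed here.

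**Figure D1:**
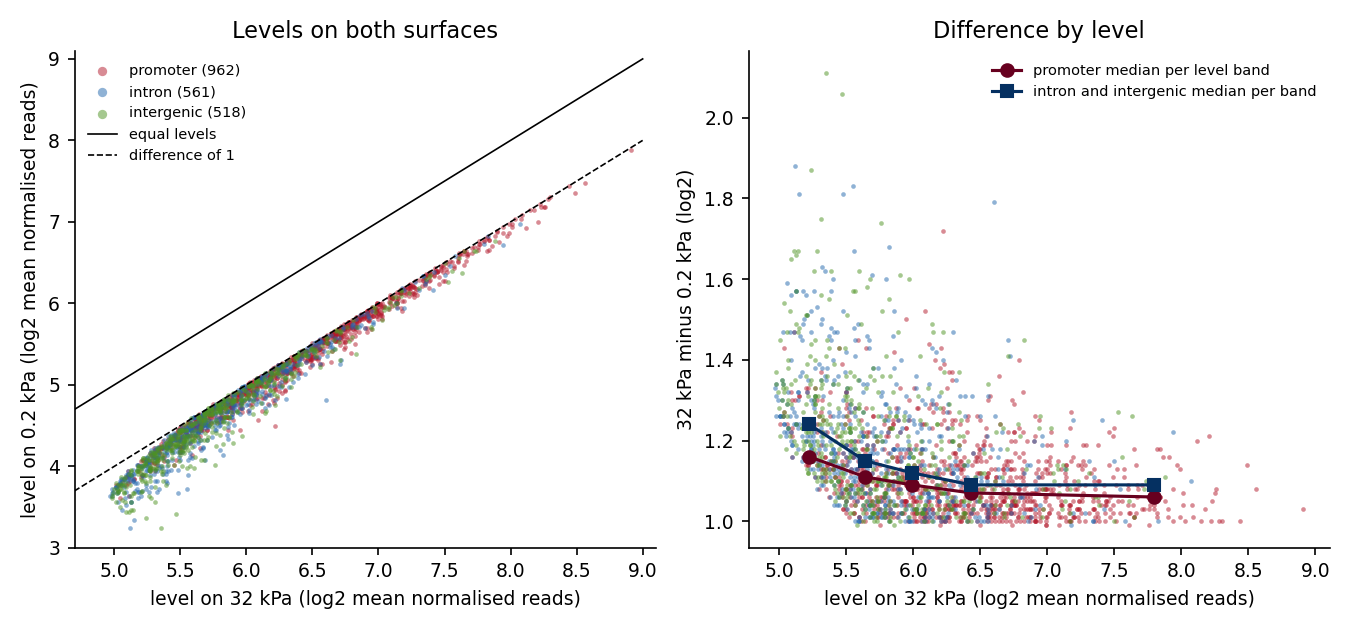
Left, the level of each listed promoter, intron and intergenic region on 0.2 kPa against that on 32 kPa, both in log2 mean normalised reads. Right, the difference between them against the level on 32 kPa, with the median of promoters and of intron and intergenic regions in each of 5 bands of level. In the left panel all points lie near or below the dashed line of a difference of 1, and in the right panel the medians fall from 1.16 and 1.24 in the weakest band to 1.06 and 1.09 in the strongest.

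The weaker a region was on 32 kPa, the larger its listed difference. In 5 bands of the 32 kPa level of about equal size, the median difference was 1.23 in the weakest (4.97 to 5.48), then 1.13, 1.1, 1.08 and 1.06 in the strongest (6.69 to 8.91). The authors' FDR chose the regions, so this order only describes the list. The share of all regions of a band that were listed ran the other way, from 6.60% in the weakest to 20.1% in the strongest. Median FDR in the authors' deposited table fell from 0.0369 to 0.00321 over the same bands. Strong regions were thus listed more often, with smaller differences. The share of promoters rose with level too, from 18.8% of the listed regions in the weakest band to 78.0% in the strongest, and from 29.4% to 72.9% of the other regions. They were less frequent among listed than among other regions in the 3 weakest bands, and more frequent in the strongest.

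Promoters made up 45.4% of the listed regions (962, exact 95% binomial interval 43.2 to 47.5), introns 26.4% (561) and intergenic DNA 24.4% (518). The intervals cover counting of regions only. For comparison, 14904 other regions reached the lowest listed 32 kPa level and overlapped no listed region, and against the sum of both the listed regions were 12.5%. Promoters were 43.2% of those others as they stood, and 49.8% once they were weighted to the listed regions' levels over 10 bands. The side on which listed regions fell thus depended on whether level was taken into account. Introns were 26% of the others and 22.6% after weighting, and intergenic regions 26% and 22.8%. The listed shares of both lay above the weighted shares. Other classes were small, with 30 regions in 5' UTRs, 18 in exons, 13 at transcript ends, 11 in 3' UTRs and 8 in non-coding transcripts. The other regions were taken without a 0.2 kPa level, so they can hold regions that differed by less than the threshold or missed the FDR. They can also hold regions that were higher on 0.2 kPa or were not tested against it. The shares over all genes and regions given below rest on this set.

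**Figure D2:**
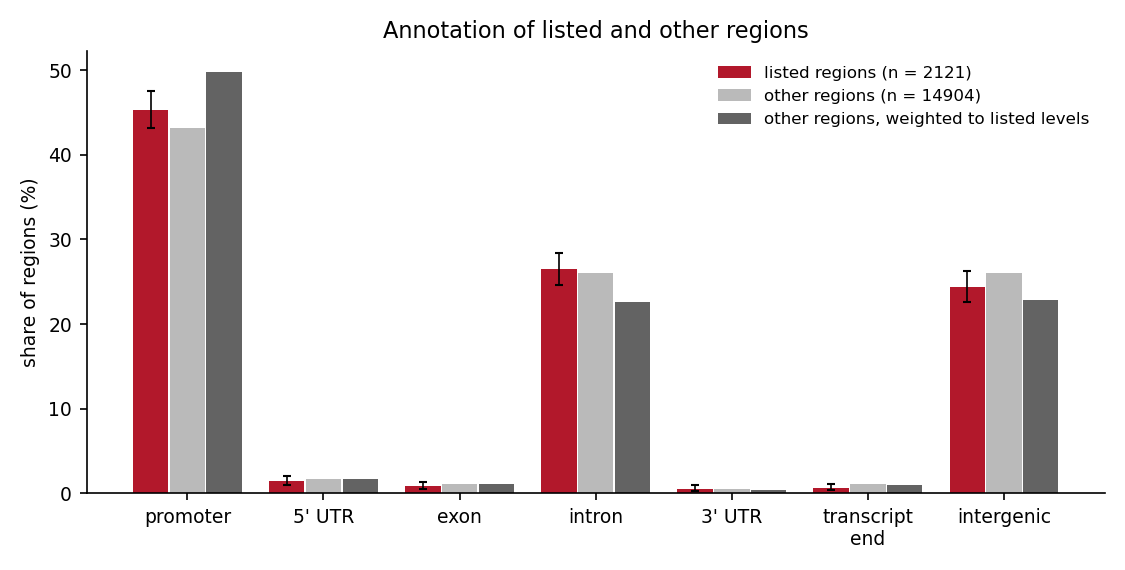
Share of regions in each annotation class (percent) for the listed regions, the comparison regions of at least that strength on 32 kPa, and the same regions weighted to the listed regions' levels. Bars on the listed shares are exact 95% binomial intervals. The listed promoter share of 45.4% lies between 43.2% and 49.8%.

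Promoters differed by slightly less than distal regions, within every band of level. Their median difference was 1.08, against 1.16 for introns and 1.16 for intergenic regions, and their median level on 32 kPa was 6.34 against 5.71 and 5.70. In the weakest band the medians were 1.16 for promoters and 1.24 for introns and intergenic regions together. In the strongest band they were 1.06 and 1.09. No test of this difference was made, since regions of the same libraries are not replicates. The authors' FDR selected them.

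By distance, 1038 regions (48.9%) lay within 1 kb of a start site, 766 of them upstream and 263 downstream. A further 256 (12.1%) lay at 1 to 10 kb, 449 (21.2%) at 10 to 50 kb, 187 (8.82%) at 50 to 100 kb and 191 (9.01%) beyond 100 kb. Median differences were 1.08 up to 1 kb, 1.15 in each of the next 3 classes and 1.20 beyond 100 kb. The listed regions were mostly solitary. Only 108 (5.09%) lay within 10 kb of another, in 53 groups, of which 2 held 3 regions. These 2 were at Irf2bpl and between the chaperone gene Hspa4 and Zcchc10.

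The regions were nearest to 1957 genes, which were 17.9% of the 10916 genes with a region at or above the lowest listed level. With regions within 10 kb only, the genes were 1258 of 8675 (14.5%). A single region was assigned to 1805 genes, 2 to 141, 3 to 10 and 4 to Atp10a, a phospholipid flippase gene. The share of genes with a listed region rose with the number of regions high enough to be listed, from 12.8% of genes with 1 such region to 22.2% with 2, 32.7% with 3 and 42.5% with 4 or more. Genes of the lists below had 2.15 such regions on average against 1.56 over all genes, so their shares of genes and of regions are both given. The lists were chosen with earlier results of these data known, so their shares only describe them. A gene is called not listed where no listed region had it as the nearest gene. Such a gene may still hold regions that passed the FDR but not the fold threshold, so not listed does not mean unchanged. Of 560 intronic regions with a named transcript, 145 (25.9%) lay in another gene than the nearest one.

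Counted by the gene that holds the region, 6 genes held 3 or more listed regions. How many regions high enough to be listed each of these genes holds was not counted, so no share is given. Ror1, a receptor for WNT5A, held 4 regions in its introns, of which 3 were assigned to Ube2u by their nearest start site. They had differences of 1.02 to 1.45 and levels of 4.5 to 5.26 on 0.2 kPa against 5.56 to 6.71 on 32 kPa. Col4a2, a basement membrane collagen gene, held 3 that were all assigned to its neighbour Col4a1, with differences of 1.02 to 1.31. Maml3, a coactivator of Notch, held 3 with differences of 1.02 to 1.35, 1 of them assigned to Mgst2. The sodium-calcium exchanger gene Slc8a1, Atp10a and Rnf150 held 3 each under their own names. At Rnf150 all 3 levels on plastic (5.32 to 6.03) stood above those on 32 kPa (5.23 to 5.89). Fbn1, which encodes the microfibril protein fibrillin-1, held 2 regions in its introns that were assigned to Dut. They had 3.72 on 0.2 kPa, 5.55 on 32 kPa and 4.77 on plastic, and 4.80, 5.82 and 5.31.

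The largest differences belonged to regions that lay away from promoters and were weak on 0.2 kPa. The region nearest Vstm2a, 493 kb away, had 3.24 on 0.2 kPa, 5.35 on 32 kPa and 4.55 on plastic. Nt5c1b, a cytosolic nucleotidase gene, had 3.41, 5.47 and 4.35 at a region 63.9 kb upstream. Plastic lay 0.80 and 1.12 below 32 kPa at these 2. An exon of Fnip1 assigned to Rapgef6 had 3.56, 5.53 and 5.30, so there the stiffer cultures were closer. An intron of Megf6 had 3.67, 5.48 and 4.84, and an intron of Gpc6, a cell-surface heparan sulfate proteoglycan gene, had 3.34, 5.15 and 4.72. All 10 regions with the largest differences (1.79 to 2.11) lay outside promoters. The 10th, in an intron of the noncoding RNA gene Lncenc1, was also the region with the smallest FDR, 0.000232 in the authors' deposited table, and had 4.81, 6.60 and 6.27.

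All 10 regions with the highest 32 kPa level were promoters, with differences of 1.0 to 1.14, and so were 6 of the 10 with the smallest FDR in the authors' deposited table. Sertad2, a transcriptional regulator of lipid breakdown, had a promoter level of 7.35 on 0.2 kPa, 8.49 on 32 kPa and 8.27 on plastic. Leprot, which traffics the leptin receptor, had 7.88, 8.91 and 8.86, the highest levels of the list on each culture. Arrdc4, an arrestin-like gene, had 7.48, 8.56 and 8.36. Ripk2, a kinase of bacterial sensing, Mgat1, which starts complex N-glycans, Gatad2a, a subunit of the NuRD complex, and the nuclear export receptor Xpo1 were also among the 10 highest. Sin3a, the corepressor scaffold, had 2 listed regions, at the shared promoter with 2700012I20Rik (6.64, 7.82 and 7.43) and in an intron (6.16, 7.41 and 7.29). Chd9, a chromatin remodeller, had 6.72, 7.94 and 7.69 in an intron. The Hip1, Ing1 and Rnf44 promoters differed by 1.20, 1.16 and 1.21.

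Among promoters the largest difference was at Clec2d, a lectin-like receptor gene, with 4.5 on 0.2 kPa, 6.22 on 32 kPa and 5.35 on plastic. Nsf, the ATPase that recycles vesicle fusion machinery, had 4.57, 6.09 and 5.58. Scel, which encodes sciellin of the cornified envelope, had 4.45, 5.95 and 5.51 at its promoter and 2 further regions that differed by 1.46 and 1.19. All 3 were intermediate on plastic. The other 7 of the 10 were Snord2, Agbl5, Ppp1cc, Pdk1, Snrpc, Ccdc124 and Osmr, with differences of 1.42 to 1.47. The snoRNA gene Snord2, the splicing gene Snrpc and the phosphatase gene Ppp1cc had plastic levels close to those on 32 kPa (5.13, 5.97 and 5.49 against 5.11, 6.12 and 5.65). Pdk1, a kinase that turns pyruvate away from the mitochondrion, had 4.78, 6.21 and 5.92.

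Smooth muscle and contractile genes had the largest share of genes with a listed region among the 21 pathway lists, 7 of 12 measured (58.3%), where 17.9% of all measured genes had one. By regions they had 7 of 27 (25.9%), against 12.5% over all. At 6 of the 7 the region was the promoter. Tagln, the actin-bundling transgelin, had 5.15 on 0.2 kPa, 6.34 on 32 kPa and 6.41 on plastic. Cnn3, a calponin, had 6.09, 7.10 and 6.88. Tpm2, a tropomyosin of actin filaments, had 4.45, 5.48 and 5.58. Together with Acta2, Myl9 and Smtn these are parts of the contractile fibre. Each was lowest on 0.2 kPa, as nearly all listed regions were. Tpm4 differed by 1.02 at an intron. Plastic was above 32 kPa at 4 of the 7, while over all listed regions with a plastic level it was so at 15.4%. These counts rest on matched intervals, so the small gaps at single genes are not an order of the cultures. Myh11, Tpm1, Cald1, Csrp1 and Tagln2 were measured but not listed, with strongest levels of 5.25 to 6.49 on 32 kPa.

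**Figure D3:**
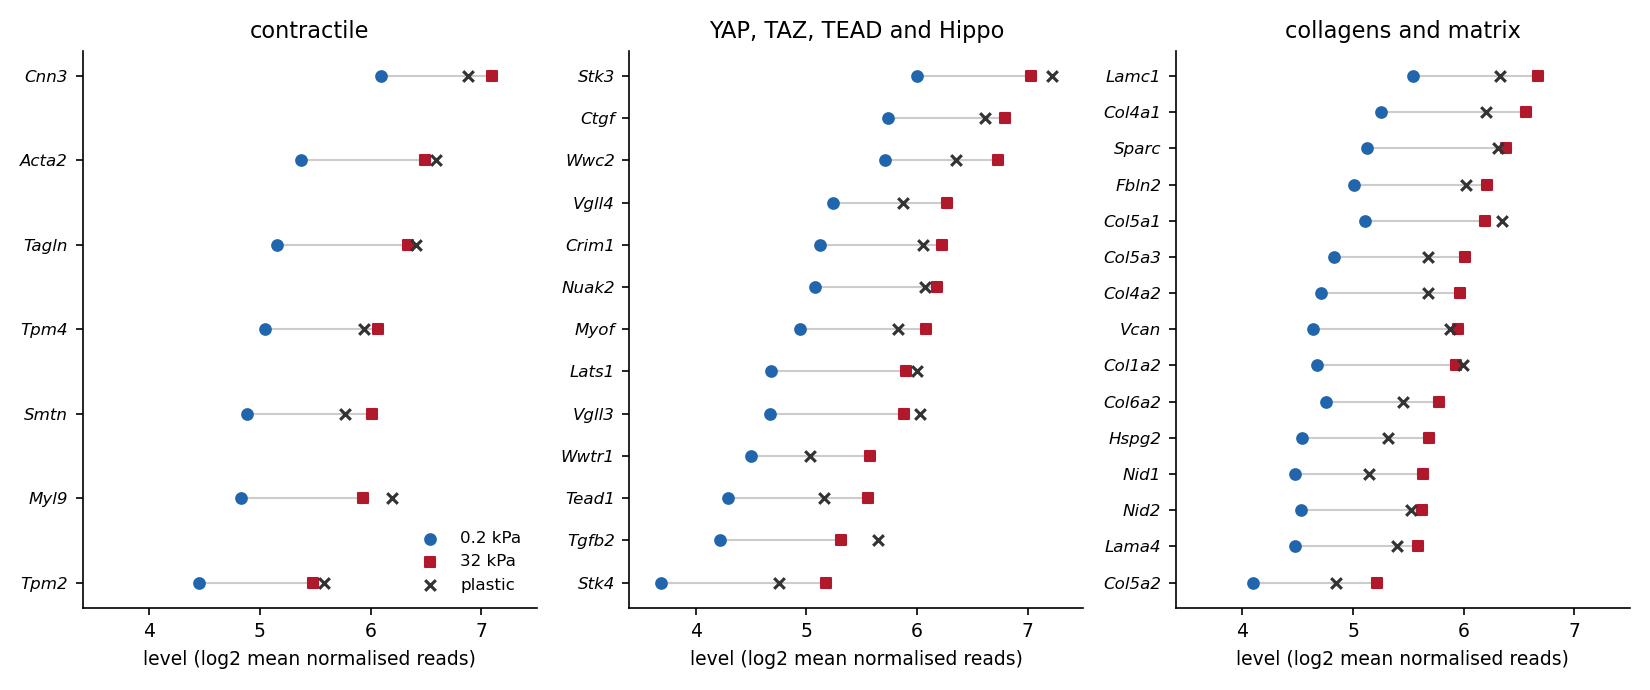
Level of the leading listed region of each gene on 0.2 kPa, 32 kPa and plastic (log2 mean normalised reads) for the contractile, YAP and Hippo, and matrix lists, each point the authors' mean over 2 libraries. All genes are lowest on 0.2 kPa, as nearly all listed regions are. In the contractile list plastic passes 32 kPa at Acta2, Tagln, Myl9 and Tpm2. Plastic levels come from matched intervals that are not always identical, so small gaps to 32 kPa cannot be told from a change of interval.

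Nonmuscle actin, myosin and crosslinker genes followed with 9 of 23 (39.1%), and 12 of 56 regions (21.4%). Myh9, the heavy chain of nonmuscle myosin IIA, had 7.15, 8.18 and 8.13 at its promoter. Actn1, an alpha-actinin that crosslinks actin, had 5.84, 7.03 and 7.03, so the plastic level of its matched interval equalled that on 32 kPa. Actn4 had 5.09, 6.12 and 6.34 at an intron. The largest difference of the list was 1.56 in an intron of Palld, the actin scaffold palladin, from 3.53 to 5.09. Lima1, Pdlim5, Flnc, Tmsb10 and Actb differed by 1.01 to 1.23. Vim, Zyx and Vcl had strong regions (8.82, 8.71 and 7.13 on 32 kPa) that were not listed.

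SRF, its cofactors and immediate early genes had 4 of 16 (25%, and 11.4% of regions), namely Nr4a1, Ier5, Elk1 and Ier2, with differences of 1.0 to 1.1. Srf itself (6.89 on 32 kPa) and Mrtfb were not listed. The promoter of Mrtfa, an actin-sensing cofactor of SRF, was covered by a listed region assigned to 4930483J18Rik, with 5.69 on 0.2 kPa and 6.69 on 32 kPa. AP-1 factors had 3 of 14 (21.4%, and 12.5% of regions). The Fosl2 promoter, of the FRA2 factor, had 6.61, 7.67 and 7.51, Atf2 differed by 1.09 and Fosb by 1.07, while Fos, Jun and Junb were not listed.

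YAP, TAZ, TEAD, Hippo and target genes had 13 of 33 (39.4%), and 14 of 81 regions (17.3%). Within 10 kb the genes were 6 of 29 (20.7%), against 14.5% of all genes. Of the effectors, Wwtr1, which encodes TAZ, had 4.5 on 0.2 kPa, 5.57 on 32 kPa and 5.03 on plastic in an intron. Tead1, their DNA-binding partner, had 2 intergenic regions, and the first had 4.29, 5.56 and 5.16. Vgll3 and Vgll4, cofactors that compete for TEAD, differed by 1.21 and 1.03. Yap1, Tead3 and Tead4 were not listed. The inhibitory side of the pathway was listed as well. The kinase genes Stk3 and Stk4, which encode MST2 and MST1, differed by 1.03 and 1.49, Lats1 by 1.22 and the adaptor Wwc2 by 1.02. Lats1 had 4.68, 5.90 and 6.0 and Stk3 had 6.0, 7.03 and 7.22, both promoters with plastic above 32 kPa. The targets Ctgf, Myof, Nuak2, Crim1 and Tgfb2 differed by 1.05 to 1.14. Ankrd1, Axl, Amotl2 and Cyr61 were measured and not listed.

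TGF-beta and SMAD genes had 9 of 35 (25.7%), and 9 of 85 regions (10.6%), and within 10 kb 3 of 32 (9.38%). By regions and within 10 kb the shares were below those over all genes. Of the ligands, Tgfb1 differed by 1.18 in an intron, Tgfb2 by 1.09 and Bmp2 by 1.28 at a region 154 kb away. Tgfb2 had 4.22, 5.31 and 5.65. Of the receptors, the promoter of Tgfbr1 had 6.38, 7.49 and 7.30, while Acvr1b and Acvr2a differed by 1.26 and 1.14 at intergenic regions. The feedback repressors Skil and Ski, which hold SMAD complexes silent, differed by 1.18 and 1.0, and Skil had 6.66, 7.84 and 7.45 at its promoter. Of the SMAD genes Smad1 was listed, with a difference of 1.04 at 99.3 kb. Smad2, Smad3, Smad7 and Tgfbr2 were measured and not listed.

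Collagen and matrix glycoprotein genes had 15 of 33 (45.5%), and 18 of 99 regions (18.2%). Most of these regions lay far from start sites, and within 10 kb the genes were 4 of 24 (16.7%). Basement membrane genes were 7 of the 15. They are the collagen IV genes Col4a1 and Col4a2, the laminin chain genes Lamc1 and Lama4, the nidogen genes Nid1 and Nid2 and the perlecan gene Hspg2. This subset, named after its values were seen, had 9 of 28 regions listed (32.1%), with differences of 1.02 to 1.31. The leading Col4a1 region had 5.25, 6.56 and 6.20, the Col4a2 region 4.71, 5.97 and 5.68, and the Lamc1 promoter 5.54, 6.67 and 6.33. Plastic lay between the 2 silicones at each. Fibrillar collagen genes had 5 of 19 regions listed (26.3%). Col5a1, which nucleates collagen fibrils, had 5.11, 6.19 and 6.35 at a region 27.7 kb upstream, Col5a2 differed by 1.12 and Col5a3 by 1.18. Col1a2 had 2 regions 15.5 and 16.1 kb upstream, with differences of 1.26 and 1.36, and Col1a1 none.

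Glycoproteins of the loose matrix completed the list. Vcan, a large proteoglycan, had 4.64 on 0.2 kPa, 5.95 on 32 kPa and 5.88 on plastic in an intron. Sparc, which binds collagen, had 5.13, 6.38 and 6.31 in its 5' UTR, and Fbln2 had 5.01, 6.21 and 6.02 at a region 9.95 kb upstream. Col6a2, of the beaded-filament collagen VI, differed by 1.02. All were lowest on 0.2 kPa, as nearly all listed regions were, with plastic 0.07 to 0.33 below 32 kPa.

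Collagen processing enzymes had 6 of 21 (28.6%), and 7 of 45 regions (15.6%). Serpinh1, the collagen chaperone HSP47, had 6.37, 7.63 and 7.24 at a region 7.09 kb upstream. The prolyl hydroxylase genes, whose products stabilise the triple helix, were listed as P4ha1 (difference 1.26), P4ha3 (1.07) and P3h1 (1.30). P3h1 had 3.98, 5.28 and 5.31 at its promoter. Lox, which crosslinks collagen, had 2 regions, a promoter with 6.33, 7.42 and 6.98 and a region 29.1 kb upstream with 5.43, 6.43 and 6.26. Adamts2, which trims procollagen, had 4.56, 5.81 and 5.54. The listed genes thus covered a chaperone, prolyl hydroxylases, a procollagen-trimming protease and a crosslinking enzyme. Loxl1, Loxl3, Loxl4, Plod1 and Plod2 were not listed.

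Matrix proteases and their inhibitors had 8 of 24 (33.3%), and 10 of 57 regions (17.5%). Adamts15, which cleaves versican, had 5.38, 6.83 and 6.41 at a region 76.6 kb away. Mmp14, the membrane collagenase, had 4.45, 5.58 and 5.44 at its promoter, and the cathepsin B gene Ctsb had 3.84, 5.15 and 5.01 at its promoter. Adam12, Adamts5 and Adamts6 differed by 1.16 to 1.24. The inhibitors Timp3 and Serpine2 differed by 1.11 and 1.24. Proteases and inhibitors were therefore both listed. Timp1 and Timp2 were not, and Mmp2 held a listed region in an intron assigned to Lpcat2 (5.48 on 0.2 kPa and 6.52 on 32 kPa).

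Integrin, focal adhesion and mechanosensor genes had the smallest share among the 21 pathway lists, 3 of 35 (8.57%), and 3 of 87 regions (3.45%, against 12.5% over all). None of the 3 lay within 10 kb of a start site, of 23 genes measured there. Itgb8, a subunit of an integrin that activates TGF-beta, had 3.89 on 0.2 kPa, 5.27 on 32 kPa and 4.68 on plastic in an intron. Itgb6, of the other TGF-beta-activating integrin, had 4.51, 5.67 and 5.81. Tns1, the adhesion protein tensin, differed by 1.02. Collagen and fibronectin receptor genes with strong regions were not the nearest gene of any listed region, among them Itgb1 (6.79), Itga1 (6.63, with a listed region in an intron assigned to Pelo), Itga5 (6.41) and Itgav (6.31 on 32 kPa). Neither were Ptk2, Pxn, Piezo1, Lmna and Sun1. By the gene that holds the region instead of the nearest one, the count was 5 of 36.

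**Figure D4:**
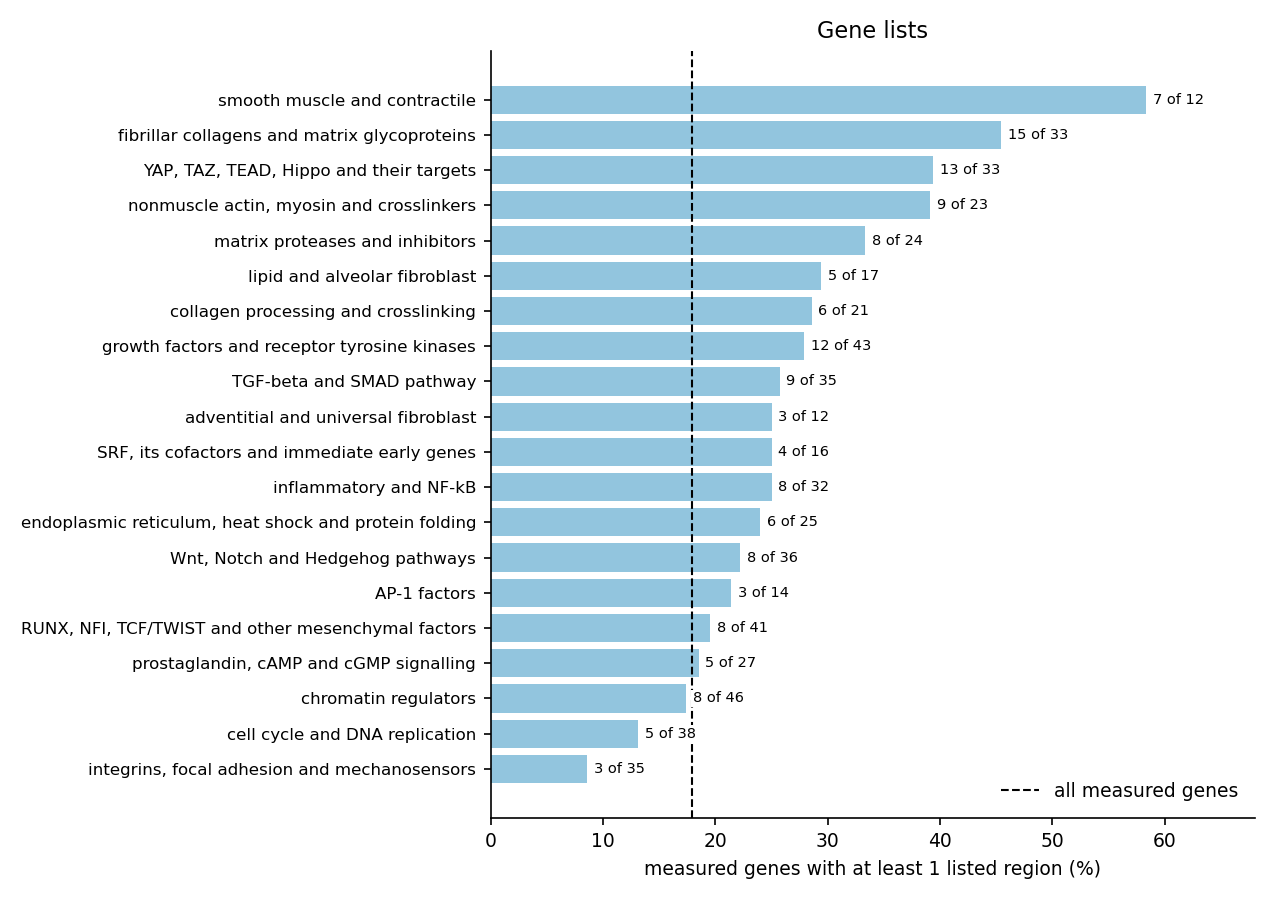
Share of measured genes with at least 1 listed region (percent) in the pathway lists, cell type markers not shown, with the counts beside the bars and a dashed line at 17.9%, the share over all measured genes. Of these lists contractile genes stand highest at 58.3% and integrin and focal adhesion genes lowest at 8.57%.

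Mesenchymal transcription factors had 8 of 41 (19.5%), and 9 of 96 regions (9.38%). Twist1, a driver of mesenchymal fate, had 5.48, 6.48 and 6.32 at its promoter. Foxp1 had 5.34, 6.55 and 6.58 in an intron, and Runx2, the bone and fibrosis factor, had 4.37, 5.43 and 5.10. The inhibitors of differentiation Id1, Id3 and Id4, which block helix-loop-helix factors such as TWIST1, differed by 1.1, 1.13 and 1.1. Nfia differed by 1.45 and Tcf12 by 1.1. Tbx5, Foxf1, Snai1 and Zeb1 were measured and not listed.

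Wnt, Notch and Hedgehog genes had 8 of 36 (22.2%), and 8 of 73 regions (11%). Within 10 kb 1 of 32 was listed (3.12%), the promoter of the Notch target Hey1, with 5.20, 6.34 and 6.09. The others were the ligand Wnt5a (difference 1.0, in an intron of Erc2), its receptor Ror1 (1.06), the Wnt antagonist Sfrp1 (1.33), Wisp1 (1.1), the Notch factor Rbpj (1.12) and target Hes1 (1.08), and the Hedgehog factor Gli3 (1.08). At none of the 8 did plastic reach 32 kPa, and the median of plastic minus 0.2 kPa was 0.74, against 0.95 over all listed regions. Axin2, with 9.26 the strongest region of the list, was not listed.

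Growth factor and receptor tyrosine kinase genes had 12 of 43 (27.9%), and 17 of 94 regions (18.1%). Igf1, a growth factor that fibroblasts make in repair, had 5.94 on 0.2 kPa, 7.19 on 32 kPa and 7.07 on plastic in an intron, and its receptor gene Igf1r had 5.71, 6.80 and 6.56. Fgf7, which acts on epithelium, had 4.12, 5.57 and 5.58, and Fgf2 had 5.71, 6.85 and 6.74. Both stiffer cultures were within 0.24 of each other at these 4. Ddr1, a receptor for collagen itself, had 3 regions with differences of 1.13 to 1.35, its promoter included. Ephb4 had 2, an intron with 4.08, 5.69 and 5.11 and a promoter with 5.63, 6.69 and 6.48, and its ligand gene Efnb2 differed by 1.02. Ntrk3 had the largest difference of the list, 1.68. Spry2 and Spry4, which restrain these receptors, differed by 1.05 and 1.34. Igfbp2 and Fgfr2 differed by 1.36 and 1.05, and Pdgfrb, Fgfr1, Egfr and Met were not listed.

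Prostaglandin, cAMP and cGMP genes, whose signal relaxes fibroblasts, had 5 of 27 (18.5%), and 6 of 53 regions (11.3%), near the share over all genes. Crem, a cAMP-responsive factor, had 6.94, 8.01 and 8.02 at its promoter, and Creb1 had 6.01, 7.13 and 6.96 at its own. Creb5 had 3.96, 5.43 and 5.06. The phosphodiesterase genes Pde3a and Pde7b, whose enzymes break cyclic nucleotides down, differed by 1.57 and 1.24. Of the receptors and synthases, Ptgs2, Ptger4 and Ptgir were measured and not listed.

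Inflammatory genes had 8 of 32 (25%), and 9 of 67 regions (13.4%). By nearest start site, ligand and receptors of the LIF and oncostatin M family were listed together. Lif had 4.06, 5.40 and 5.32 at an intergenic region 9.86 kb away. The shared subunit gene Il6st had 4.42, 5.63 and 5.16 at a region 80.8 kb away, in an intron of Ankrd55. The oncostatin M receptor gene Osmr had 4.44, 5.86 and 5.63 at its promoter and 4.59, 5.79 and 6.24 in an intron. Il1rl1, the receptor for IL-33, had 6.24, 7.35 and 7.18, and Il1r1 had 3.64, 5.13 and 4.89. Ptx3, Ccl20 and Irf1 differed by 1.05, 1.05 and 1.32. The chemokine and NF-kB genes Ccl2, Cxcl12, Nfkb1 and Nfkbia were measured and not listed. By the gene that holds the region the count was 5 of 31.

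Lipid and alveolar fibroblast genes had 5 of 17 (29.4%), and 5 of 29 regions (17.2%). Adventitial genes had 3 of 12 (25%), and 3 of 21 regions (14.3%), with none of 6 genes within 10 kb. The shares over all were 17.9% of genes and 12.5% of regions. Scd1 and Acly, which make fatty acids, had 4.91, 6.05 and 5.99, and 5.81, 6.87 and 6.82 at their promoters. Cd36, the fatty acid receptor, had 4.34, 5.57 and 4.30 at an intergenic region 82.1 kb away, so there plastic was at the level of 0.2 kPa. Cebpd, a factor of fat cell differentiation, differed by 1.01 at a region 97.3 kb away, in an intron of Spidr. Of the adventitial genes, Pcsk6 differed by 1.31, Sfrp1 by 1.33 and Thy1, a surface protein of quiescent fibroblasts, by 1.17.

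Cell cycle genes had 5 of 38 (13.2%), and 5 of 62 regions (8.06%), below the shares over all genes. Pcna, the sliding clamp of replication, had 5.70, 6.91 and 6.63 at its promoter, and Ccne1, cyclin E1, had 5.93, 7.08 and 6.90. The brakes Rb1 and Trp53 differed by 1.24 and 1.17 at introns, and Ccnd3 by 1.05. Mki67, Top2a and Ccna2 were not listed. Chromatin regulators had 8 of 46 (17.4%), and 8 of 71 regions (11.3%). Smarca2, the BRM helicase of SWI/SNF complexes, had 6.75, 7.91 and 7.88 at its promoter, and Kdm3a, a demethylase of histone H3, had 6.19, 7.38 and 7.0. The coactivator gene Ep300 differed by 1.27, Arid1b by 1.0, Hmgb2 by 1.21, Satb1 by 1.1 and the DNA methyltransferase Dnmt1 by 0.99.

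Protein folding and secretion genes had 6 of 25 (24.0%), and 6 of 40 regions (15%), and 5 of the 6 regions were promoters. Creb3l2 and Creb3l1, factors that expand the secretory pathway for collagen export, differed by 1.13 and 1.11. Sec23a, a coat subunit needed to carry procollagen out of the endoplasmic reticulum, had 6.51, 7.51 and 7.32. Canx, the lectin chaperone calnexin, had 5.88, 7.02 and 6.71, and the heat shock genes Hspa8 and Dnajb1 differed by 1.02 and 1.09. Hspa5, Calr, Xbp1 and Atf4 were not listed.

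Over the 21 pathway lists, 150 of 579 measured genes (25.9%) had a listed region, against 17.9% of all measured genes. Since earlier results were known when the lists were chosen, this excess may be partly built in. By regions the lists had 169 of 1243 (13.6%), against 12.5% over all. The lists of cell type markers were thinly measured. A region at or above the lowest listed level was found for 7 of 14 fibroblast, 7 of 14 epithelial and 7 of 13 endothelial markers. It was found for 2 of 12 leukocyte and 5 of 10 pericyte and mesothelial markers. The measured shares thus did not set fibroblast markers apart from epithelial or endothelial ones. Of fibroblast markers 2 of 7 measured genes had a listed region, Col1a2 and Thy1, and Vim had a strong region (8.82 on 32 kPa) that was not listed. Of epithelial markers it was 1 of 7, Hopx (4.61, 5.87 and 5.38), while Epcam, Scgb1a1 and Krt8 were measured and not listed. Endothelial and leukocyte markers had 0 of 7 and 0 of 2. Pericyte and mesothelial markers had 2 of 5. These were Wt1, with 2 regions and 4.71, 6.14 and 5.83 at the leading one, and Upk3b, with 3.82, 5.39 and 4.57 in an intron of Dtx2. Single markers went both ways on 32 kPa. The strongest regions of Ptprc of leukocytes (3.92), Cdh1 of epithelium (3.27) and Pecam1 of endothelium (4.04) were below the lowest listed level. So were those of Pdgfra (4.19) and Dcn (4.89) of fibroblasts, while Cdh5 of endothelium stood at 6.91. Levels on 0.2 kPa were read for the listed regions only, and the part of such cells in the results was not tested.

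Plastic, the stiffest surface, gave levels at 2117 of the listed regions. Its libraries were not a side of the comparison that chose them, while the 0.2 kPa and 32 kPa libraries were, so what follows is a description. Whether the plastic libraries entered the merging of peaks or the scaling is not known. The level on plastic was above that on 0.2 kPa at 2115 regions, with a median difference of 0.95 (middle 50% 0.80 to 1.08). It was at least 0.5 higher at 2064 regions (97.5%) and at least 1 higher at 844 (39.9%). Plastic was below 32 kPa by a median of 0.19 and above it at 327 regions (15.4%), where in the other regions the median was 0.02 below and 45.0% were above. These are unlike measures. At listed regions the plastic level came from a matched interval, identical at 643 of them, while the other regions had both levels from the same interval. The listed regions were also chosen for being higher on 32 kPa than on 0.2 kPa. Promoters, introns and intergenic regions were alike in plastic minus 0.2 kPa, with medians of 0.94, 0.95 and 0.96.

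Single regions departed from that pattern in both directions, and are named here after their values were seen. The 2 regions not higher on plastic than on 0.2 kPa were the distant one assigned to Cd36 and an intron of Pdzrn3, with 5.54, 6.55 and 5.52. The promoter of Ston1, an endocytic adaptor, was nearly the same, with 3.87, 5.10 and 3.90. At these 3 the level was high on 32 kPa alone. The 4 regions furthest above 32 kPa on plastic were the Bclaf1 promoter (5.69, 6.73 and 7.31), the Smg9 promoter (4.87, 5.97 and 6.43), an intron of Casp14 (4.47, 5.57 and 6.03) and the intron of Osmr given above. Mrc2, an endocytic receptor for collagen, had 4.53, 5.87 and 6.25, and a region upstream of the fatty acid desaturase gene Scd2 had 4.89, 6.21 and 6.60. At these 6 the levels followed the order 0.2 kPa, 32 kPa, plastic.

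The promoter sequences themselves were compared by the letters they hold. RefSeq windows of 300 bases were used where a region covered at least 150 of them, which gave 739 windows of listed regions, 4960 of other regions and 32851 in all. Median G+C was 64.3% in listed, 63.3% in other and 52.7% in all windows. The SP and KLF letters GGGCGG were in 77.4% of listed windows, 78.0% of other windows weighted by level and 35.7% of all windows. The ETS letters CCGGAA were in 36.8% (exact 95% interval 33.3 to 40.4), against 32.8% and 14.9%. The NF-Y letters CCAAT were in 47.2%, against 51.6% and 37.4%. The listed windows thus held ETS letters somewhat more often and NF-Y letters somewhat less often than weighted other windows, and in both cases the weighted share lay just outside the listed interval. Without weighting the other windows had ETS letters at 32.2% and NF-Y letters at 46.3%, so for NF-Y the direction turned with weighting. These intervals count windows, not libraries.

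The letters of the tension-linked factors were no more frequent in listed promoters. TEAD letters GGAATG were in 11.1% of listed windows, 11.2% of other windows weighted by level and 14.7% of all windows. The exact CArG box CCWWWWWWGG was in 7 listed windows (0.947%), against 1.45% and 1.63%, and near matches to it were not counted. AP-1 letters TGANTCA were in 2.98% (1.87 to 4.47), against 4.5% and 7.81%, the weighted share again just outside the interval. RUNX letters TGTGGT were in 11.4%, against 10.6% and 16.8%, and C/EBP letters TTGCNNAA in 7.71%, against 7.16% and 10.8%. The cAMP response element TGACGTCA was in 3.25%, against 3.57% and 1.79%. CTCF letters were in 5.68%, against 7.29% and 3.43%, and the NFI palindrome in none of 739, which allows up to 0.498%. Both strands were searched, and ETS and TEAD letters can share bases with each other. Windows cover promoters only, so the letters of the intronic and intergenic regions were not analysed here.

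**Figure D5:**
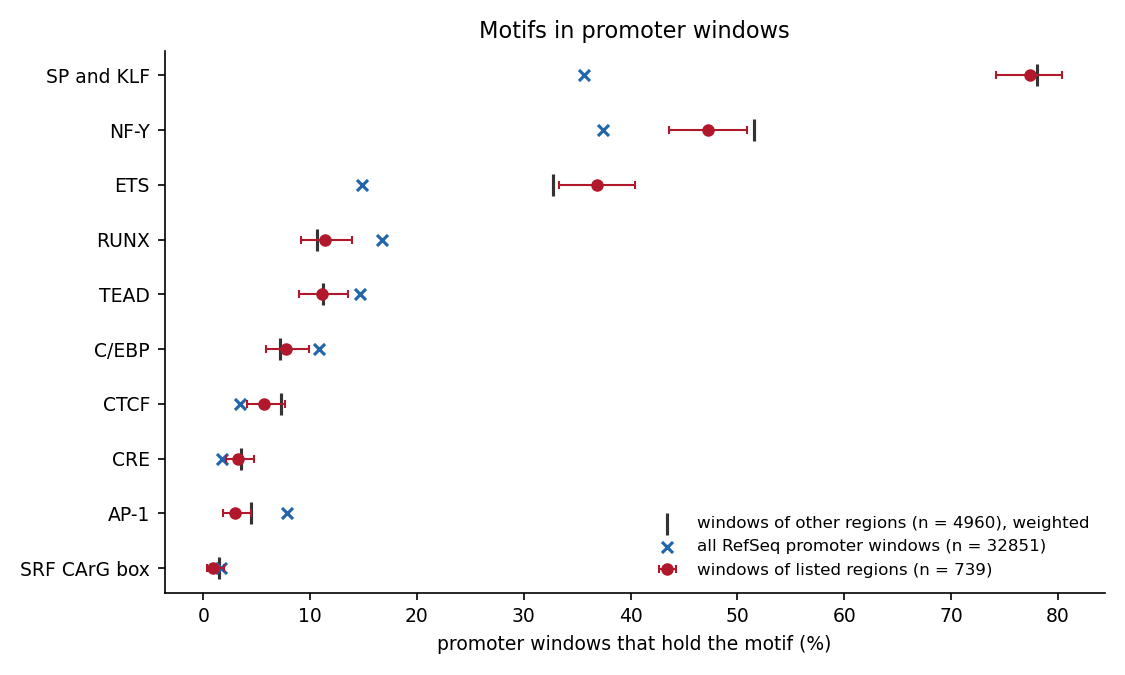
Share of RefSeq promoter windows (percent) that hold each motif on either strand, for windows of listed regions with exact 95% binomial intervals, windows of other regions weighted by level, and all windows. Listed and weighted other windows lie close together, at 11.1% and 11.2% for TEAD and at 36.8% and 32.8% for ETS.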

How the data were processed

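Omni-ATAC-seq libraries of sorted lung fibroblasts were grouped by the culture in their labels. BWA, Picard, MACS2 and DiffBind on mm10 are named, without versions or settings, per the submitters' processing notes. The shifting of reads, merging of peaks and scaling of libraries are steps not given in the sources used here. The deposited levels and folds are log2 values, per the file headers: a level is the log2 of a culture's mean normalised reads, as the authors computed it. The p-value and FDR of each region are the authors' own, as deposited. Depth per library is unknown.

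The sides of the comparison are headed Control and Treat. At 643 intervals shared with the table of 32 kPa against plastic Control held the same value as the 32 kPa column each time (643 of 643), so Control was read as 32 kPa. The difference was computed from the levels and lay within 0.01 of the deposited fold. Plastic levels came from that other table, from the region with an overlap of 50% or more of each length. Since the tables share libraries, no overlap between them is reported. Genes and annotations were used as deposited, in the layout of HOMER, with the gene of the nearest start site (TSS). A promoter is a region so annotated. A repeated header row (1) was dropped, and 0 columns belonged to other samples.

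The number tested was taken as FDR times rank over p, at 136 rows. Other regions came from the table of 32 kPa against plastic, had a 32 kPa level of at least the lowest listed one and touched no listed region, and they were weighted over 10 bands of that level. A gene was measured if it had a listed or other region. Motifs were searched in RefSeq promoter windows (GRCm38.p6) in place of the region centres that had been planned, since no genome was used. The weighting, matching and motif search were checked on simulated data. The work used pandas 2.3.3 and numpy 2.4.6 in Python 3.11.15, with intervals from scipy 1.17.1 and plots from matplotlib 3.10.9. No test was run, since the tables hold no value per library.

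The members (all listed regions), the 26 gene lists (21 pathways and 5 sets of cell markers) and the motifs were chosen with earlier results of these data known. Some genes and 1 list are not reported here. Of 786 list symbols 2 had no match in RefSeq. Genes were named by rule: the 10 regions with the largest fold, smallest FDR, highest 32 kPa level and largest promoter fold, the 3 with the largest fold per annotation class, genes with 3 or more regions, the 5 regions nearest each threshold, and list genes by their region of smallest FDR. Names outside it are marked as chosen after their values were seen, as were gene bodies that hold several regions, the microRNAs and promoters printed, second regions of a list gene and list genes that were not listed.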

Additional observations from a re-analysis of the deposited data

How the results depend on the processing

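Of the 2121 regions, 700 had an FDR of at most 0.01 in the authors' deposited table, and 415 had a linear fold of at least 2.38 in the authors' deposited table. The promoter share of 45.4% moved to 63.6% with the stricter FDR and to 48.9% when regions within 1000 bases of a start site were counted. For the other regions it moved from 43.2% to 48.1% within 1000 bases and to 49.8% with level weighting. The 150 list genes with a listed region became 72 within 10 kb and 56 with the stricter FDR, because fewer regions are counted, and 153 by the gene that holds the region, an alternative chosen after seeing the data. The median of plastic minus 0.2 kPa of 0.95 was 0.93 with a match of 90% of both lengths and 0.94 with the stricter FDR. No paired analysis was possible because the tables hold 1 mean per culture, with no value per library. For the same reason leaving out a library was not run, and every difference rests on 2 libraries a side with a spread known only through the authors' FDR. The alternatives for region sequences (whole regions, and regions outside promoters) were not run because no genome was used. Weighting by level moved the share of other windows with SP and KLF letters from 75.3% to 78.0%, on either side of the listed 77.4%. It moved AP-1 and NF-Y by more than counting error as well, and the other 8 motifs by less.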

Other observations

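Gene families outside the lists were counted by their symbols, after the values were seen. Cytosolic ribosomal protein genes had a listed region at 13 of 44 measured genes (29.5%, where 17.9% of all measured genes had one), and 11 of the 13 regions were promoters. The Rps19 promoter had 6.86 on 0.2 kPa, 7.94 on 32 kPa and 7.81 on plastic, and the Rpl31 promoter had 5.53, 6.75 and 6.69. Their median level on 32 kPa was 6.72, above the 5.97 of all listed regions, and strong regions were listed more often. Glycosyltransferase and heparan sulfate genes had 16 of 70 (22.9%). Among them were Sulf1, which trims heparan sulfate, with 2 regions that differed by 1.19 and 1.14, Chsy3, which builds chondroitin sulfate, with 6.0, 7.14 and 6.93 at its promoter, and Ext1, which builds heparan sulfate, with 5.58, 6.60 and 6.55. Kinesin, dynein and tubulin genes had 13 of 59 (22.0%) and histone genes 8 of 37 (21.6%). Zinc finger genes of the C2H2 and BTB kinds had 40 of 309 (12.9%), microRNA genes 32 of 257 (12.5%) and ion channel genes 9 of 72 (12.5%). Sox genes had 0 of 10 and Hox cluster genes 0 of 4.

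Noncoding RNA genes were the nearest gene at 215 listed regions (10.1%, against 11.1% of other regions and 10.1% after weighting by level), 37 of them promoters. Carmn, the transcript that hosts miR-143 and miR-145 of smooth muscle, had 5.84, 6.87 and 6.63 at its promoter. Repeats were counted by the single detailed label of a region, so a repeat within a region under another label was missed. They were the label of 117 listed regions (5.52%, exact 95% interval 4.58 to 6.57, against 7.23% of other regions and 6.11% after weighting by level). Of these, 60 were LTR elements, 30 of them of the ERVL-MaLR family (1.41%, 0.956 to 2.01, against 1.15% of other regions, which lies inside that interval, and 0.835% after weighting). Satellites were at 0 listed and 39 other regions.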
